A study of Mus musculus with 8 samples.

Results

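Interleukins are small secreted proteins through which immune, endothelial and connective tissue cells signal to each other, and interleukin receptors are the membrane chains that bind them. The genes described here are all 76 interleukin-named genes (symbols that begin with Il and a digit) of the 19938 genes that the array table paired with 1 symbol. They comprised 38 ligands, 35 receptor chains and 3 other genes, which were Il18bp and Il22ra2, both soluble binding proteins, and Il1bos, a transcript opposite Il1b. The genes were taken by name and not by their values. Il1r1, Il1rl1, Il2rg, Il11ra1 and Il22 were not analysed here.

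The cells were hepatic stellate cells, which wrap the liver sinusoids and store vitamin A, sorted from mouse liver by the fluorescence of that vitamin. All mice were on a C57BL/6J background, carried floxed Lhx2, and had been given the interferon inducer poly(I:C) 3 times, with cells taken 2 weeks later. The control group (arrays 1 to 4) had no Cre. The knockout group (arrays 5 to 8) also carried Mx1Cre, a Cre driven by an interferon-responsive promoter that is active in many cell types, blood cells included. Lhx2 encodes a LIM homeodomain transcription factor, and the series title names stellate cell activation as the question. Deletion in stellate cells, deletion elsewhere and the presence of Cre cannot be told apart, and both groups had received an agent that itself induces cytokine genes. Nothing in the labels ties each array to its own animal. The p-values therefore cover only the spread between arrays, which may be technical.

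Most interleukin receptors work as pairs. A private chain binds the ligand and a shared chain, such as gp130 (Il6st), Il1rap, Il10rb or Il17ra, completes the signalling complex. Shared chains are found on many cell types, whereas many private chains and ligands belong to lymphocytes and myeloid cells. Stellate cells are known as a source of some cytokines and as responders to others.

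Values are deposited log2 expression values normalized with the Robust Multichip Algorithm (RMA), which shrinks differences at the dim and the very bright ends of the scale. Array medians lay between 7.42 and 7.47. The deleted gene Lhx2 had a log2 level of 11.95 ± 0.08 on control arrays and 11.29 ± 0.17 on knockout arrays (SD, n = 4 each), a difference of -0.66 (SE 0.09, limma adjusted p = 0.00136). Its p in a two-sided exact permutation test was 0.0286, which is as small as this number of arrays allows. Whether its probes lie in the deleted part is not given. The 11 measured stellate cell markers had a mean log2 level of 12.81 to 12.89 on control arrays and 12.54 to 12.56 on knockout arrays, with 5 of them lower (Reln, Hgf, Gfap, Rgs5 and Hand2). Hepatocyte markers (11 measured, mean 9.38 to 11.33 on control and 9.80 to 11.15 on knockout arrays) and sinusoidal endothelial markers (12 measured, 8.97 to 11.43 and 9.04 to 10.30) varied from array to array. Of these, 1 endothelial marker was lower in the knockout (Clec4g, log2 difference -1.23, SE 0.25, limma adjusted p = 0.0177). Of the markers that define T cells, B cells and NK cells, 1 of 6, 1 of 5 and 1 of 7 lay above the level of olfactory receptor genes. In such bulk samples, fewer cells of a type and less RNA per cell cannot be told apart.

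Olfactory receptor genes, whose known place of use is the nose, gave a guide to the level of an unexpressed gene. The 1027 of them had a median log2 level of 5.45 and a 95th percentile of 6.86. By this guide, 38 of the 76 interleukin genes lay above that percentile in the mean of at least 1 group, namely 16 of 38 ligands, 21 of 35 receptor chains and Il18bp. Among all genes 67.8% did. The members just under the line were Il1rn (6.85), Il1f5 (6.83) and Il17a (6.78), and the members just over it were Il16 (6.87), Il21r (6.95) and Il9r (7.0), each given as its higher group mean.

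The 22 ligands under the line included Il2, Il3, Il4, Il5, Il9, Il10, Il12a, Il12b, Il17a, Il18, Il21 and Il23a, which are classical products of T cells and myeloid cells. Il10, an anti-inflammatory cytokine, had log2 levels of 5.74 ± 0.12 and 5.75 ± 0.10 (control and knockout, SD, n = 4 each). Il4, which drives type 2 immunity, had 6.48 ± 0.11 and 6.43 ± 0.08. Il18, an activator of interferon production by lymphocytes, had 5.21 ± 0.09 and 5.34 ± 0.14, and Il1rn, the antagonist of the IL-1 receptor, 6.85 ± 0.15 and 6.79 ± 0.05. The 14 receptor chains under the line included Il2ra, Il2rb, Il5ra, Il7r, Il18r1, Il18rap, Il12rb2 and Il23r, known mainly from lymphocytes and granulocytes. None of these 38 genes passed the threshold in limma, none had an unadjusted p under 0.05, and their differences ran from -0.16 to 0.39. Of the 1027 olfactory receptor genes, 0 passed and 15 had an unadjusted p under 0.05, so such counts are usual for dim genes.

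The genes of the dim range moved together from array to array. Of the 38 members under the line, 19 had their highest value on control 1, and 12 had their lowest on control 3 and 10 on knockout 7. The olfactory receptor genes had their highest median on control 1 as well (5.52), and medians of 5.41 on control 3 and 5.40 on knockout 7. Small negative differences prevailed in both sets, with 76.3% of the 38 members and 68.0% of the 1027 olfactory receptor genes lower in the knockout mean. Differences of this size in dim members are therefore given as counts only. Several members above the line were also highest on control 1 and low on control 3 and knockout 7. They included Il13 (log2 7.75, 7.29 and 7.22 on these arrays), Il12rb1 (7.73, 7.18 and 7.15), Il9r, Il22ra1, Il20rb, Il17b, Il25 and Il27. For such genes, a level above the line may not mean expression.

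**Figure D1:**
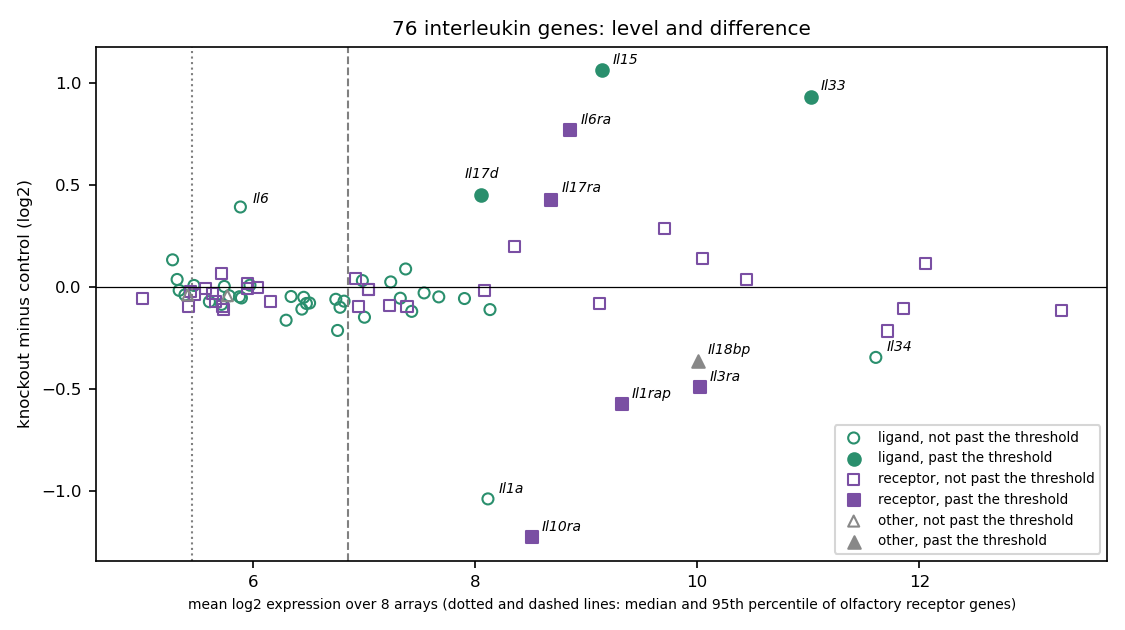
Each of the 76 interleukin genes is plotted by its mean log2 expression over 8 arrays (horizontal) and its difference, knockout minus control, on the log2 scale (vertical); filled symbols passed the threshold, and the dotted and dashed lines mark the median (5.45) and 95th percentile (6.86) of olfactory receptor genes. All 9 filled symbols lie to the right of the dashed line, while the differences of the genes to its left run from -0.21 (Il16) to 0.39 (Il6).

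Of the 76 interleukin genes, 5 rose and 4 fell in the knockout (limma, adjusted p under 0.05), which is 11.8% of them, where 7.38% of all genes tested passed. The higher genes were the ligands Il15, Il33 and Il17d and the receptor chains Il6ra and Il17ra, and the lower ones the receptor chains Il10ra, Il1rap and Il3ra and the binding protein Il18bp. Ligands had 3 higher and 0 lower of 38, with 2 lower at an unadjusted p under 0.05 (Il16 and Il17f), and receptor chains 2 higher and 3 lower of 35. Among all 19938 genes, 3.76% were higher and 3.63% lower after adjustment, and 1708 were lower at an unadjusted p under 0.05. The arrays of the groups did not overlap for 14 of the 76 (7 higher, 7 lower), or 18.4%, against 12.7% of all genes (6.38% higher, 6.32% lower). Of the 37 members with a mean over all arrays above the olfactory 95th percentile 9 passed, where 10.6% of all such genes passed. The median difference was -0.04 for the members and -0.02 for all genes.

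**Figure D2:**
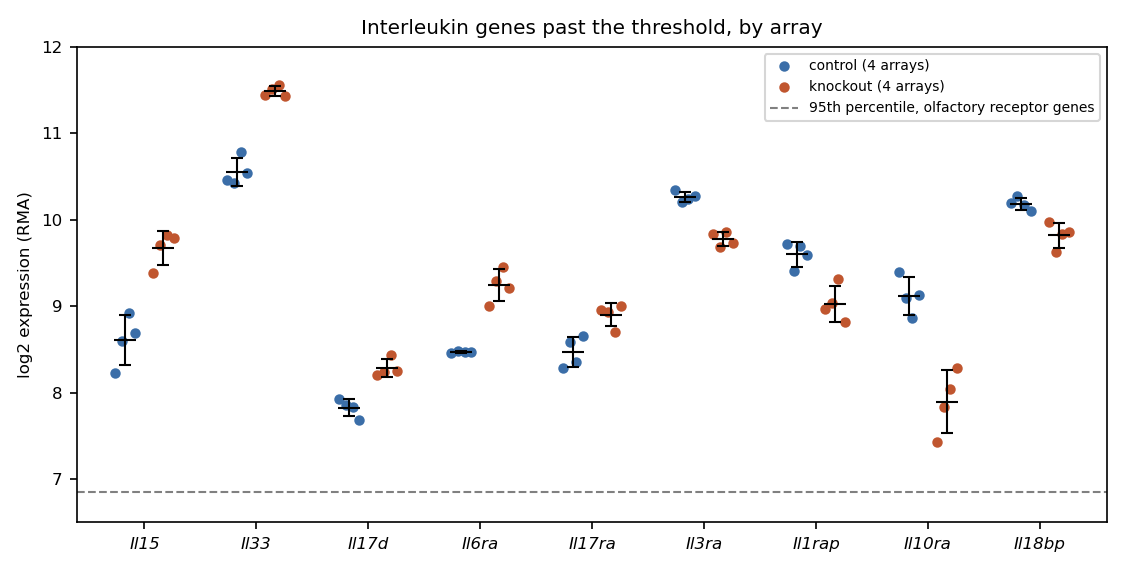
Log2 expression (vertical axis) on each of the 4 control and 4 knockout arrays is shown for the 9 interleukin genes past the threshold, with the mean and SD as black bars and the 95th percentile of olfactory receptor genes as a dashed line. In each gene every knockout array lies on one side of all control arrays, and the control values of Il6ra lie closer together than those of the other genes.

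Among the ligands, Il33 encodes an alarmin of the IL-1 family that is held in the nucleus of stromal and endothelial cells and released when they are damaged. Its log2 values were 10.46, 10.43, 10.78 and 10.54 on control arrays 1 to 4 and 11.44, 11.51, 11.56 and 11.44 on knockout arrays 5 to 8. Every knockout array was above every control array, and the knockout arrays lay within a narrow range. Il33 rose 1.91-fold (log2 difference 0.94, SE 0.08, limma adjusted p = 9.18e-05), and the difference stayed between 0.88 and 1.01 whichever array was left out, without control 1 and control 4, and with marker levels as covariates.

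The sequences upstream of the start sites are shown for Il33, the ligand with the smallest p, which has a pair of annotated starts, and for Il6ra and Il1rap, receptor chains that moved in opposite directions. They were taken from RefSeq (build GRCm38.p6), which held windows for 6 of the 9 genes. Each is the 250 bases before the start, 5′ to 3′ on the strand of the gene, and capitals mark TAATTA, the core motif of LIM homeodomain factors.
Il33, first start, chr19:29924863-29925112, plus strand: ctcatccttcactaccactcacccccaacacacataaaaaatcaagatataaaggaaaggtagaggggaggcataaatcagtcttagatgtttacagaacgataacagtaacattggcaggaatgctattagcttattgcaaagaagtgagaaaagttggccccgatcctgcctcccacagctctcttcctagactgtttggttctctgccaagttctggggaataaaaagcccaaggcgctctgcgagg
Il33, second start, chr19:29945540-29945789, plus strand: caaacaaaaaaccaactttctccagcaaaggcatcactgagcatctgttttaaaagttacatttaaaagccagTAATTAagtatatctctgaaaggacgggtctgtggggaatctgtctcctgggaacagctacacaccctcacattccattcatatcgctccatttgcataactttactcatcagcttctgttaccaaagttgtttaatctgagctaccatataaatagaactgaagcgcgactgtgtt
Il6ra, chr3:89913197-89913446, minus strand: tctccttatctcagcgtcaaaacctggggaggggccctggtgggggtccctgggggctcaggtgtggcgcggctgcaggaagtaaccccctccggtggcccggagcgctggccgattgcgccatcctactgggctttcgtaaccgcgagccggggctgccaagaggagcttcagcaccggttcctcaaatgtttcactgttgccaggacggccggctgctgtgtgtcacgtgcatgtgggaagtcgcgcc
Il1rap, chr16:26581455-26581704, plus strand: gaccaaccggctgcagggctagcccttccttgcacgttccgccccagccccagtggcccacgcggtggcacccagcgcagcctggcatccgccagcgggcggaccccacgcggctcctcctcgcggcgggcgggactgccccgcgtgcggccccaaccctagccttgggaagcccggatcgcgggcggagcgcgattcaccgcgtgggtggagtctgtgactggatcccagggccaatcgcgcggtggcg

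TAATTA occurred in 1 of the 7 windows of the 6 genes, the second start of Il33, and in 4.84% of all 32851 windows of the same length. GAAANNGAA, the core of the interferon-stimulated response element, and TTCNNNGAA, the palindrome bound by STAT factors, occurred in 0 of the 7 windows, searched on both strands, and in 7.13% and 7.02% of all windows. A match describes letters in this stretch and no binding was measured.

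Il15 encodes a cytokine that sustains NK cells and memory T cells and is displayed on the producing cell by its receptor chain Il15ra. Its log2 values were 8.23, 8.60, 8.92 and 8.69 on control arrays and 9.39, 9.71, 9.82 and 9.79 on knockout arrays. The control arrays spread more widely than the knockout arrays, with control 1 lowest, and the groups did not overlap. Il15 rose 2.09-fold (log2 difference 1.06, SE 0.15, limma adjusted p = 0.00181). Il15ra, the presenting chain, had log2 levels of 9.98 ± 0.06 and 10.12 ± 0.10 (SD, n = 4 each). Its knockout arrays were all above the control arrays, but the difference of 0.14 (95% interval 0.00 to 0.28) did not pass after adjustment (limma adjusted p = 0.271). The shared chain Il2rb lay at the level of olfactory receptor genes (5.95 and 5.96).

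Il17d, a member of the IL-17 family that is made outside the immune system, had log2 values of 7.93, 7.86, 7.83 and 7.69 on control and 8.20, 8.24, 8.44 and 8.25 on knockout arrays. Each knockout array lay above each control array. Il17d rose 1.37-fold (log2 difference 0.45, SE 0.07, limma adjusted p = 0.0041). Of the other members of that family, Il17f had a difference of -0.15 (SE 0.05, limma adjusted p = 0.136) with knockout arrays all below control arrays, and Il17a, Il17b, Il17c and Il25 had differences between -0.11 and -0.03.

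Some markers of portal fibroblasts, another matrix-producing cell of the liver, moved with the groups beside these rises. Of 8 measured, 5 were higher (Cd34, Dpt, Eln, Mfap4 and Dpep1) and 0 lower, and the mean of the list ran from 7.80 to 8.09 on control and from 9.07 to 9.26 on knockout arrays. Thy1, Gli1 and Fbln2 did not pass, with differences of -0.10, -0.007 and 0.27. Cd34, Dpep1 and Dpt had the largest differences (3.08, 2.37 and 2.28). All 8 markers lay above the olfactory line. The part of these cells in the rises of Il33, Il15 and Il17d was not tested. Markers of mesothelium had overlapping means of 7.01 to 7.29 and 7.0 to 7.08, with 1 of 6 lower (Wt1).

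**Figure D3:**
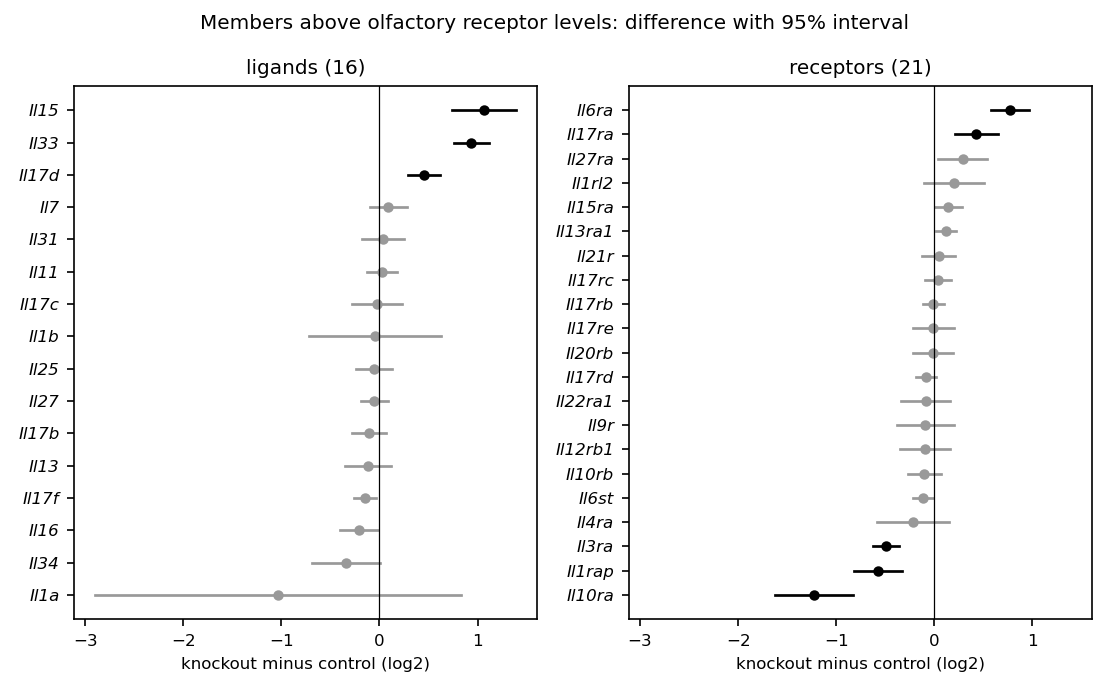
The difference in log2 expression, knockout minus control (horizontal axis), is drawn with its 95% interval for the 16 ligands and 21 receptor chains above olfactory receptor levels; black marks genes past the threshold and grey the rest. Intervals are narrow for most receptor chains and widest for Il1a, from -2.90 to 0.83, and Il1b, from -0.72 to 0.63.

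Other ligands above the line did not pass the threshold. Il34, a second ligand of the macrophage growth factor receptor CSF1R, had log2 values of 11.57, 11.60, 12.00 and 11.94 on control and 11.84, 11.41, 11.38 and 11.13 on knockout arrays. The groups overlapped through knockout 5. Its difference was -0.34 (SE 0.15, 95% interval -0.69 to 0.00, limma adjusted p = 0.296). Il7, a growth factor of lymphocytes made by stromal cells, had 7.33 ± 0.13 and 7.42 ± 0.13 (SD, n = 4 each), and Il11, a gp130 cytokine linked to fibroblasts, had 7.23 ± 0.12 and 7.25 ± 0.05. Il13 (7.49 and 7.37), Il16 (6.87 and 6.66), Il25 (7.35 and 7.30), Il27 (7.93 and 7.88), Il31 (6.97 and 7.0), Il17b (8.19 and 8.08) and Il17c (7.55 and 7.53) had differences between -0.21 and 0.03, with overlapping groups.

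The inflammatory ligands Il1a, Il1b and Il6 differed more between arrays of a group than between groups. Il1a, an IL-1 receptor agonist released by injured cells, had log2 values of 6.70, 9.89, 7.65 and 10.29 on control and 6.55, 7.76, 7.01 and 9.07 on knockout arrays. Control 2, control 4 and knockout 8 were higher than the other arrays of either group. The difference of -1.04 had an SE of 0.83 and a 95% interval from -2.90 to 0.83 (limma adjusted p = 0.656). It was -1.68 without control 1, -0.62 without control 2, -0.48 without control 4 and -0.69 without knockout 5. The mean of the 12 endothelial markers on the same arrays was 8.97, 10.96, 9.87 and 11.43 for the control and 9.04, 9.97, 9.71 and 10.30 for the knockout group, and the same 3 arrays were the highest. With hepatocyte and endothelial marker levels as covariates, an alternative chosen after seeing the data, the difference of Il1a was -0.17 (limma adjusted p = 0.746). Socs3, a signalling partner described below, was highest on control 2, control 4 and knockout 8 as well (11.89, 12.25 and 11.84). The part of endothelial cells in the Il1a levels was not tested.

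Il1b, the second IL-1 receptor agonist, had values of 7.59, 8.49, 7.08 and 7.63 on control and 7.22, 7.35, 7.84 and 8.19 on knockout arrays. The groups overlapped and the difference was -0.05 (SE 0.30, limma adjusted p = 0.970). Il6, a gp130 cytokine of acute inflammation, had values of 5.33, 6.33, 5.48 and 5.62 on control and 5.74, 5.73, 5.57 and 7.30 on knockout arrays. Only knockout 8 was above the olfactory line, and without that array the difference went from 0.39 to -0.01. Neither gene passed the threshold.

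**Figure D4:**
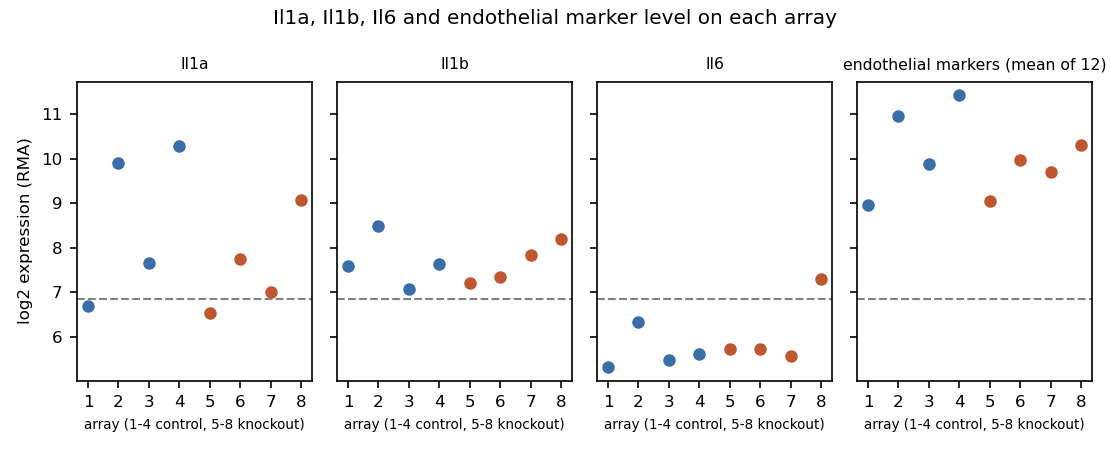
Log2 expression on each array is shown for Il1a, Il1b and Il6, with the mean of 12 sinusoidal endothelial markers in the last panel; blue is control (arrays 1 to 4), orange is knockout (arrays 5 to 8), and the dashed line is the 95th percentile of olfactory receptor genes. Il1a is highest on control 2, control 4 and knockout 8, where the endothelial markers are highest too, and Il6 crosses the line on knockout 8 alone.

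Among receptor chains, those of the IL-6 family differed by subunit. Il6ra, the chain that binds IL-6, had log2 values of 8.46, 8.48, 8.48 and 8.47 on control and 9.01, 9.30, 9.46 and 9.21 on knockout arrays. The control arrays were almost equal and all knockout arrays lay above them. Il6ra rose 1.71-fold (log2 difference 0.77, SE 0.09, limma adjusted p = 0.000519). Il6st, the signal-transducing chain gp130, had values of 13.33, 13.36, 13.36 and 13.28 on control and 13.23, 13.23, 13.18 and 13.23 on knockout arrays. The knockout arrays were all lower, yet the difference of -0.12 (95% interval -0.22 to -0.01) did not pass after adjustment (limma adjusted p = 0.218), at a level near the top of the value range. Il31ra, another chain of this family, lay under the olfactory line (6.19 and 6.12).

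In the IL-17 receptor family 1 of 5 chains passed. Il17ra, the chain shared by most IL-17 receptors, had log2 values of 8.29, 8.59, 8.36 and 8.65 on control and 8.96, 8.94, 8.71 and 9.0 on knockout arrays. The lowest knockout array, 7, was 8.71 against a highest control of 8.65, so the gap between the groups was small. Il17ra rose 1.35-fold (log2 difference 0.43, SE 0.10, limma adjusted p = 0.0281), and it lost the threshold without control 1, control 3, knockout 5, knockout 6 or knockout 8, with adjusted p up to 0.0855, which left 1 risen receptor chain. It was also lost without control 1 and control 4 (adjusted p = 0.0883) and with the macrophage marker level as a covariate (0.0635). Its partner Il17rc had levels of 10.43 ± 0.07 and 10.47 ± 0.07 (SD, n = 4 each). Il17rb (7.05 and 7.04), Il17rd, which restrains fibroblast growth factor signalling (9.16 and 9.08), and Il17re (7.05 and 7.04) had differences between -0.08 and -0.01. The Il17rd knockout arrays were all below the control arrays, but its difference of -0.08 did not pass (limma adjusted p = 0.444).

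Il10ra, the chain that binds IL-10 and is best known from leukocytes, showed the largest fall among the 76 genes. Its log2 values were 9.40, 9.09, 8.86 and 9.13 on control and 7.43, 7.83, 8.04 and 8.29 on knockout arrays. The groups did not overlap, and the knockout arrays spread over a wider range than the control arrays. Il10ra had 42.8% of the control level in the knockout (log2 difference -1.22, SE 0.18, limma adjusted p = 0.00244), and its difference lay between -1.35 and -1.07 when any 1 array was left out. Its partner Il10rb, which also serves the IL-22 and interferon lambda receptors, had 11.91 ± 0.13 and 11.80 ± 0.08 (SD, n = 4 each), a difference of -0.10 (95% interval -0.27 to 0.06). Il22ra1 (7.28 and 7.19) and Il20rb (8.09 and 8.07), other chains of this class, had overlapping groups.

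Leukocyte markers were measured beside Il10ra. The 12 markers of Kupffer cells and macrophages had means of 7.48 to 8.40 on control and 7.47 to 8.02 on knockout arrays, with 1 lower (Cd68, -0.61, SE 0.14) and 0 higher. The Kupffer cell markers Vsig4 and Clec4f did not pass, with differences of -1.24 (SE 0.39, limma adjusted p = 0.104) and -0.45 (SE 0.12, adjusted p = 0.0517), the latter with all knockout arrays below the control arrays. Cd5l, C1qb and Timd4 also had negative differences (-0.40, -0.15 and -0.20) and did not pass. Lyz2, C1qa, Csf1r, C1qc, Adgre1 and Marco had positive differences, from 0.02 to 0.30, and did not pass either. The defining markers Adgre1 and Timd4 lay under the olfactory line. The 5 pan-leukocyte markers had means of 6.86 to 7.28 and 6.89 to 7.24, with 0 called. With the macrophage marker level as a covariate, chosen after seeing the data, Il10ra had a difference of -1.16 (limma adjusted p = 0.0062). With hepatocyte and endothelial marker levels it was -1.06 (limma adjusted p = 0.0111). The macrophage covariate is a mean of markers that differed in direction, with overlapping group ranges, so it cannot separate Il10ra from macrophage content. The part of macrophages and other cells in the fall of Il10ra was not tested.

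Il1rap, the co-receptor shared by IL-1, IL-33 and IL-36, had log2 values of 9.72, 9.40, 9.70 and 9.59 on control and 8.97, 9.04, 9.31 and 8.81 on knockout arrays. All knockout arrays were lower, with knockout 7 closest to the control arrays. It had 67.2% of the control level in the knockout (log2 difference -0.57, SE 0.11, limma adjusted p = 0.0119), a call lost without control 1 and control 4 (difference -0.52, adjusted p = 0.125). Il33, a ligand that uses Il1rap, was thus higher and this co-receptor lower on the same knockout arrays. The private chain for IL-33, Il1rl1, was not analysed here. Il1rl2, the IL-36 receptor chain, had 8.26 ± 0.27 and 8.46 ± 0.18 (SD, n = 4 each; limma adjusted p = 0.561). The other interleukin-named chains of this family that were measured, Il1r2, Il18r1, Il18rap, Il1rapl1 and Il1rapl2, lay under the olfactory line. Sigirr, a chain of this family from the list of signalling partners, lay above it (7.34 and 7.33). Il1r1, like Il1rl1, was not analysed.

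Il18bp, a secreted protein that neutralises IL-18 and is induced by interferon gamma, had log2 values of 10.19, 10.27, 10.17 and 10.10 on control and 9.97, 9.63, 9.84 and 9.86 on knockout arrays. The groups did not overlap, with control 4 and knockout 5 closest. It had 78.0% of the control level (log2 difference -0.36, SE 0.08, limma adjusted p = 0.0211). The threshold was lost without control 2 (adjusted p = 0.0678), without control 1 and control 4 (0.0961), and with hepatocyte and endothelial marker levels as covariates (0.0606). Its target Il18 and both chains of the IL-18 receptor lay under the olfactory line in each group.

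Il3ra, the alpha chain of the IL-3 receptor, had log2 values of 10.34, 10.20, 10.25 and 10.27 on control and 9.84, 9.68, 9.86 and 9.73 on knockout arrays. Both groups were tight and well apart. It had 71.3% of the control level (log2 difference -0.49, SE 0.06, limma adjusted p = 0.00083). The signalling chain Csf2rb, which completes this receptor, lay under the olfactory line (6.56 and 6.56), and its relative Csf2rb2, which serves IL-3 in the mouse, had levels of 7.13 ± 0.09 and 7.15 ± 0.14 (SD, n = 4 each). These chains are close copies of each other, so their separate levels are uncertain. The ligand Il3 was also under the line.

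The receptor chains of IL-4 and IL-13, cytokines of type 2 immunity that act on stellate cells, did not pass. Il4ra had log2 values of 11.50, 11.97, 11.69 and 12.11 on control and 11.96, 11.56, 11.29 and 11.61 on knockout arrays, with overlapping groups and a difference of -0.21 (95% interval -0.58 to 0.15). Il13ra1 had 12.00 ± 0.03 and 12.11 ± 0.03 (SD, n = 4 each). Its knockout arrays were all higher, by a difference of 0.12 (SE 0.05, limma adjusted p = 0.214). Il27ra, a receptor of the IL-12 family, had 9.56 ± 0.15 and 9.85 ± 0.21, a difference of 0.29 (SE 0.11, limma adjusted p = 0.200), and the groups overlapped. Il12rb1 (7.43 and 7.34), Il9r (7.0 and 6.90) and Il21r (6.90 and 6.95) had overlapping groups as well.

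Signalling partners of the interleukins, a list of JAK, STAT and adaptor genes, gp130-family ligands and receptors, and related chains, had 3 higher and 2 lower of 44 measured, or 11.4%, against 7.38% of all genes. The median difference of the list was -0.03. Cntfr, the receptor chain of ciliary neurotrophic factor that signals through gp130, had log2 values of 10.41, 10.49, 10.17 and 10.41 on control and 11.24, 11.25, 11.62 and 11.28 on knockout arrays. All knockout arrays were higher, and Cntfr rose 1.97-fold (log2 difference 0.98, SE 0.10, limma adjusted p = 0.000312). Pycard, the inflammasome adaptor ASC, rose by 0.36 (SE 0.07, limma adjusted p = 0.0135), a call lost without control 1 and control 4 (adjusted p = 0.133).

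Tslp, an epithelial and stromal cytokine related to IL-7, and its receptor chain Crlf2 moved in opposite directions. Tslp had log2 values of 6.60, 6.66, 6.34 and 6.57 on control and 7.18, 7.01, 7.20 and 6.96 on knockout arrays. Its control arrays were all under and its knockout arrays all over the olfactory line of 6.86, so the size of the rise of 0.54 (SE 0.09, limma adjusted p = 0.00416) is uncertain. Crlf2 had values of 10.12, 10.04, 10.00 and 10.20 on control and 9.62, 9.61, 9.84 and 9.62 on knockout arrays. It fell by 0.42 (SE 0.07, limma adjusted p = 0.00605), and without control 1 and control 4 its adjusted p was 0.0776. Il7r, the chain that completes the Tslp receptor, lay at 5.46 and 5.37, within the range of olfactory receptor genes.

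Of the common signal transducers, Jak1, Stat3, Socs3 and Myd88 had overlapping groups, and Jak2 did not. Over the whole partner list the groups did not overlap for 9 of 44, or 20.5%, against 12.7% of all genes. Besides the 5 past the threshold, these were Jak2, Clcf1 and Tab2 (knockout lower) and Tab1 (knockout higher). Jak1, a kinase of most interleukin receptors, had 12.49 ± 0.07 and 12.44 ± 0.04, and Stat3, the main target of gp130 and of the IL-10 receptor, 11.86 ± 0.06 and 11.80 ± 0.03 (SD, n = 4 each). Socs3, a feedback inhibitor induced by Stat3, had 11.66 ± 0.51 and 11.39 ± 0.41, with a 95% interval of the difference from -0.88 to 0.33. Jak2, a kinase of the IL-3 and IL-12 receptors, had log2 levels of 10.95 ± 0.07 and 10.63 ± 0.17 (SD, n = 4 each). Its knockout arrays were all lower, but the difference of -0.31 (SE 0.09, limma adjusted p = 0.0634) did not pass. Myd88, the adaptor of the IL-1 receptor family, had a difference of -0.39 (SE 0.14, limma adjusted p = 0.164). Traf3ip2, the adaptor Act1 of IL-17 receptors, fell by 0.32 (SE 0.07, limma adjusted p = 0.0183), so that Il17ra and its adaptor differed in direction. Its call was lost without control 2, control 4, knockout 5 or knockout 6 (adjusted p up to 0.062) and with hepatocyte and endothelial marker levels as covariates (0.0678).

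**Figure D5:**
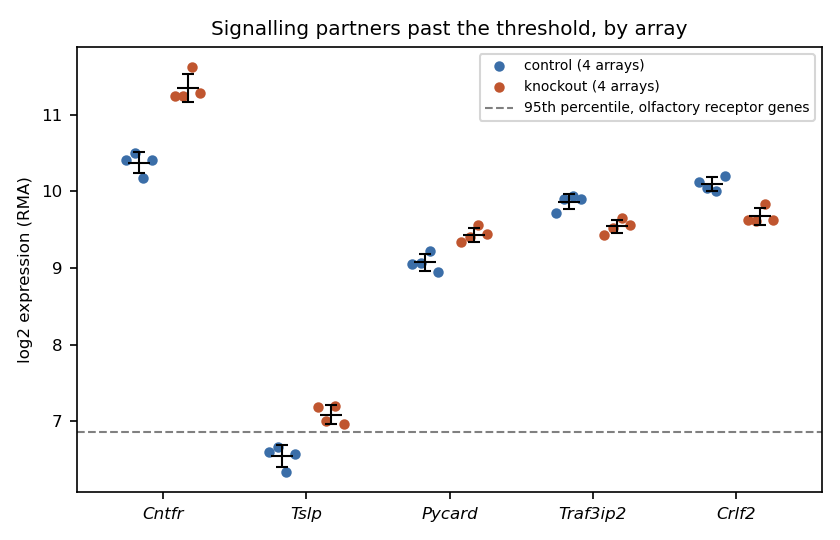
Log2 expression (vertical axis) on each of the 4 control and 4 knockout arrays is shown for the 5 signalling partners past the threshold, with mean and SD as black bars and the 95th percentile of olfactory receptor genes as a dashed line. Cntfr, Tslp and Pycard are higher and Traf3ip2 and Crlf2 lower on every knockout array, and Tslp crosses the dashed line.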

How the data were processed

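Affymetrix Mouse Gene ST arrays measured RNA of sorted stellate cells on 8 arrays, 4 control and 4 knockout. The deposited log2 expression values had been normalized with RMA, per the labels' protocols. For the RMA version and scan dates, the sources used here give nothing, and batches could not be examined. Of 35556 probe sets, 21789 carried 1 gene symbol in the platform annotation, 1621 several and 12146 were unnamed, and those with several were left out. The probe set with the highest mean stood for a gene. Of the 76 members, 3 had more than 1 probe set. The number of arrays limits the precision.

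Knockout minus control was estimated in limma 3.58.1 (lmFit, eBayes; R 4.3.3) over all 19938 genes, two-sided, with no covariate, no filter on dim genes, Benjamini-Hochberg adjustment and a threshold of 0.05. Intervals are 95% intervals of that fit. Named members are those past the threshold and those above the olfactory 95th percentile in at least 1 group mean. A short list of well-known interleukins was also named. Other members, named as examples of dim genes or as partners of these, were chosen after their values were seen. So were Csf2rb, Csf2rb2, Sigirr, Jak2, Tab1, Tab2, Clcf1, Vsig4 and Clec4f. Of 50 signalling partners listed, 44 were measured. The members and lists were chosen with earlier results of these data known. The alternatives were other normalizations, filters, variance models, array weights, probe set rules and thresholds, leaving out arrays, and, added after seeing the data, marker levels as covariates. On simulated data with the means and spreads of these 19938 genes in the same comparison, the fit recovered 80% of 50 genes with a log2 change of 0.5, 92% of 50 with 1, 96% of 50 with 2 and 98% of 50 with 3, with 13 false calls (6.6% of the calls). The simulated noise was independent between genes, so array effects shared by many genes were left out of these rates. The promoter motifs were chosen after the results were seen. The interferon-response motif was shortened to its core after a longer form had matched 0 member windows.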

Additional observations from a re-analysis of the deposited data

Results flagged for a closer look

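A value that stood far from the other 3 arrays of its group was looked for in 88 groups (44 named interleukin genes, control and knockout apart), where chance marks about 1 in 20, and 6 were found. Il6 was 7.30 on knockout 8, against 5.74 on the nearest knockout array. Il10rb was 12.10 on control 3 against 11.85, Il7 was 7.52 on control 3 against 7.28, and Il17c was 7.27 on control 3 against 7.63. Il17c was also 7.27 on knockout 7. The members under the olfactory line had their lowest means on control 3 and knockout 7 (5.78 and 5.80). Il17rd was 9.06 on knockout 5 against 9.08, and Il6st was 13.18 on knockout 7 against 13.23, both in groups with a very small range.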

How the results depend on the processing

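No paired analysis was possible because the groups share no replicate number. Across 21 alternatives, Il33, Il15, Il6ra and Il10ra passed the threshold in each, and none of the 35 uncalled named interleukin genes passed in any in which it was tested, while 14 of the 35 turned sign in at least 1. No called interleukin gene changed direction, the number of lower ligands was 0 in each, and the difference of Lhx2 lay between -0.73 and -0.59. The 2 higher receptor chains became 1 without control 1 and control 4, at an adjusted p under 0.01, with a 1.5-fold minimum and with the macrophage covariate, and 1 to 2 when 1 array was left out. The 3 lower receptor chains became 1 with a 1.5-fold minimum, and 2 without control 1 and control 4 and at 0.01, where Il1rap was lost. The 3 higher ligands became 2 with a 1.5-fold minimum, where Il17d was lost. The 2 lower signalling partners became 3 with quantile normalization and with the trended robust variance, 4 with array weights, where Myd88 passed (adjusted p = 0.0302), 1 without control 1 and control 4, at 0.01 and with the hepatocyte and endothelial covariates, 0 with a 1.5-fold minimum, and 1 to 2 when 1 array was left out, and the 3 higher partners became 1 with a 1.5-fold minimum, 2 without control 1 and control 4 and at 0.01, where Pycard was lost, 2 among genes above the olfactory 95th percentile, and 4 without control 4. At the olfactory 99th percentile of 7.80, 23 and not 38 interleukin genes lay above the line. The 1.5-fold minimum and the threshold of 0.01 are stricter by construction; for the others the cause was not tested. With the array weights 1892 genes passed and without control 1 and control 4 776, against 1472.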
